A study of Mus musculus with 8 samples.

Results

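The genes described here are 10 myeloid receptor genes of mouse, the inhibitory receptors Pirb, Sirpa, Siglece and Clec12a and the C-type lectin receptors Clec5a, Clec4n, Clec4d, Clec4e, Clec7a and Clec10a. They are 10 of 21887 protein-coding genes in the RefSeq gene table. They were selected from a list of receptor genes after the called PU.1 sites of these data had been seen, and Clec7a was already known to have no site in any library. The sites in and around them are therefore given as a description, and nothing below is a test.

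PU.1 binding was measured by ChIP-seq, in which DNA bound by a protein is precipitated with an antibody and sequenced, in AML246, a mouse acute myeloid leukaemia line grown with IL-3. Dox (doxycycline, 0.1 ug/mL) was given from day 0 and taken away at day 12 of a 24 day course. The titles call the Dox phase restoration and the phase after it knockdown, and the labels give no genotype or allele for the line. The 4 restoration libraries came from total viable cells, untreated at day 0 and after 4, 8 and 12 days of Dox. The other 3 carry titles that differ from their treatment labels. The library titled knockdown Day 12- 4 is labelled as Cd11b-high viable cells after 12 days of Dox. The library titled Day 12- 8 is labelled as total viable cells 4 days off Dox, and the one titled Day 12- 12 as total viable cells 8 days off Dox. Not analysed here was a further sample, labelled 12 days off Dox. All samples are of a single line, each library was the only one of its title, and no expression was measured, so the labelled cell type could not be checked against marker genes. A call in a bulk sample cannot tell a site bound in fewer cells from a site bound more weakly in all of them.

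The lists of called summits, each the highest point of a peak, differed widely in length. Days 0, 4, 8 and 12 gave 8043, 57424, 33962 and 86271 summits, and the 3 knockdown titles, in the order above, gave 9868, 21377 and 148415. Sequencing depth and the control library are unknown, so a longer list need not mean more binding, and a missing call need not mean an empty site. Each summit carries the authors' score, read as the −log10 of the peak's q-value. Scores rank the sites within 1 list and do not compare binding between lists. For this reason the share of a list that scored at least as high is given beside some scores, and site counts are also given after cutting each list to its 8043 top scores, which is as many as day 0 has. These equal-length lists reach down to scores of 56.2, 36.4 and 81.9 at days 4, 8 and 12 and of 4.98, 8.69 and 19.4 in the 3 knockdown titles in the order above.

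The transcription factor PU.1, an ETS protein of myeloid cells and B cells, binds purine-rich DNA around a GGAA core. Inhibitory receptors of myeloid cells carry cytoplasmic tyrosine motifs (ITIMs) that recruit the phosphatases SHP-1 and SHP-2 and dampen activation. Myeloid C-type lectins recognise sugars, lipids or debris of microbes and dying cells. Several of them signal through the adaptors FcR-gamma or DAP12 and the kinase Syk to Card9.

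The promoter sequences show where the called summits lay in relation to PU.1-type core letters. A RefSeq table (GRCm38.p6, the coordinates of mm10) gave a promoter window of 300 bases, 250 before to 50 after a gene start, for 7 of the 10 genes. Summits fell within the windows of 4 of them, Pirb, Siglece, Clec5a and Clec4e. The part of each window within 50 bases of its summits is printed below on the gene's strand (the minus strand for all), 5′ to 3′, and stops before the gene start. Clec7a, which had no site, is shown for comparison over the bases 50 to 150 before the first of its listed starts. The listed Siglece start lies inside the gene, 11883 bp from its upper coordinate, where the gene on the minus strand begins. Capitals mark GAGGAA or its reverse complement TTCCTC.
Pirb (chr7:3720399-3720513): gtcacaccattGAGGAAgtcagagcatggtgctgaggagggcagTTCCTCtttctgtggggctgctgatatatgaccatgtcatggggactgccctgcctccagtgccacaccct
Siglece (chr7:43660162-43660254): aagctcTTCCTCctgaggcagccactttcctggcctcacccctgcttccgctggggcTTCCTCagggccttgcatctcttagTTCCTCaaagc
Clec5a (chr6:40585806-40585937): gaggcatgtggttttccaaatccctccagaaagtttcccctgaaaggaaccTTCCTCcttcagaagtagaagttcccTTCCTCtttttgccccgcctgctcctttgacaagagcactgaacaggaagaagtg
Clec4e (chr6:123289960-123290060): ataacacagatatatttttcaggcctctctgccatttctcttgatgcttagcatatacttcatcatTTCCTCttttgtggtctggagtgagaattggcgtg
Clec7a (chr6:129472829-129472929): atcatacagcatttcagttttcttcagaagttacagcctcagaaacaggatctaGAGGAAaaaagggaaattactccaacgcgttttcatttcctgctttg

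All 7 promoter windows held GAGGAA on either strand, including those of Clec7a, Clec12a and Clec4d, in which no summit fell. The listed Clec12a start lies 461 bp inside the gene, so its window does not reach the recurrent site just outside the gene that is described below. Of 21263 promoter windows of protein-coding genes, 27.4% held it. The longer form GAGGAAGT, which contains GAGGAA, was in the Pirb window alone among the 7 and in 3.13% of all windows. At Pirb the 5 summits lay 67 to 81 bases before the start, and their distance to the third base of the nearest GAGGAA was 4 bases in the library titled Day 12- 12 and 14 to 18 in the others. At Clec5a the summits lay 23, 54 and 82 bases before the start at days 4, 8 and 12. Their distances to the third printed base of the nearest match were 30, 1 and 3 bases. At Siglece these positions were 30, 39 and 43 bases before the start, 4, 5 and 9 bases away. The single Clec4e summit, at day 12, lay 139 bases before the start and 18 bases away. Among all promoter windows with a summit, 32.3, 41.7, 38.1 and 31.1% held GAGGAA at days 0, 4, 8 and 12, and 42.3, 29.2 and 34.8% in the 3 knockdown titles in the order above. A match of letters is a description of the sequence and does not show that PU.1 used it.

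Across the restoration series the receptor genes with a site within the gene or 10 kb of it numbered 2, 9, 8 and 9 of 10 at days 0, 4, 8 and 12. The same rule found a site at 36.8, 69.8, 61.7 and 77.1% of all protein-coding genes. Sirpa and Siglece had a site at day 0, and Clec7a was the gene with none at days 4 and 12. Clec4e lacked a site at day 8 as well. A site at day 12 with none at day 0 was seen for 7 of 10 receptor genes, against 42.1% of all genes. The median number of sites per receptor gene was 0, 2, 2 and 1.5 at days 0, 4, 8 and 12, against 0, 2, 1 and 2 over all genes. The median length of the receptor genes was 12179 bp, against 17169 bp for all genes, and a longer gene offers more room for a site. Sirpa (41187 bp), Siglece (23163 bp) and Clec4n (17182 bp) were longer than the median of all genes.

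In lists of equal length the count of receptor genes with a site was largest at day 4. Among the 8043 highest-scoring sites, 7 of 10 genes had a site at day 4, against 25.5% of all genes. Day 8 gave 4 genes, against 29.2%, and day 12 gave 3, against 35.2%. The 7 genes at day 4 were Pirb, Sirpa, Siglece, Clec12a, Clec5a, Clec4d and Clec10a, and the 3 at day 12 were Pirb, Sirpa and Siglece. The only Siglece site in the day 4 equal-length list lay inside the neighbouring gene Ceacam18. A day 4 site inside Siglece, at 43654712, scored 56.2, which is the lowest score in that list. Sites tied at that score were cut by chromosome and position, and this site was left out by that order alone. The windows of the 10 genes held 3, 11, 8 and 4 of the 8043 sites at days 0, 4, 8 and 12. Full lists gave 3, 26, 20 and 26 sites.

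**Figure D1:**
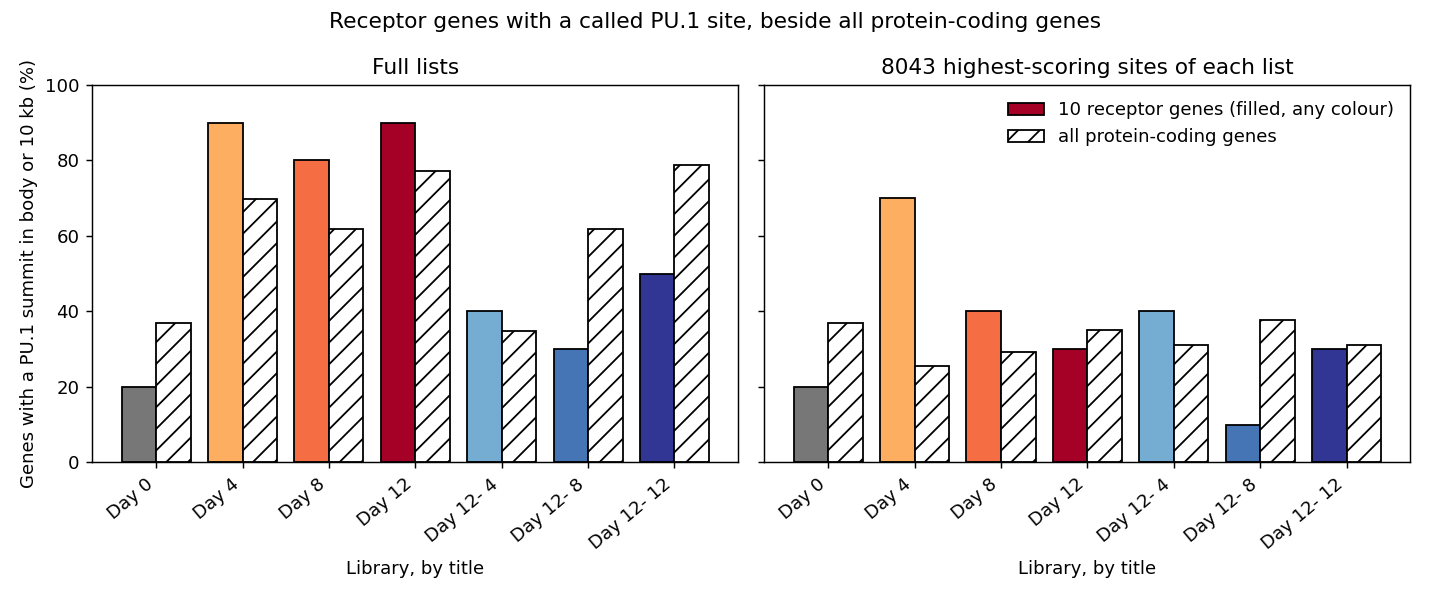
Share of genes (%, vertical axis) with a PU.1 summit in the body or within 10 kb, for each library by title (horizontal axis), in full lists and in the 8043 highest-scoring sites of each list. Filled bars are the 10 receptor genes and hatched bars all 21887 protein-coding genes; with equal-length lists the receptor genes stand at 70% at day 4 and 30% at day 12, beside 25.5% and 35.2% of all genes.

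Of the libraries titled knockdown, Day 12- 4 had a site at 4 of 10 receptor genes, against 34.8% of all genes. These were Pirb, Sirpa, Clec12a and Clec4d, and all 4 also had a site among its 8043 highest-scoring, against 31.0% of all genes. The library titled Day 12- 8 had a site at 3 of 10, against 61.8%, and at 1 of 10 in the equal-length list, against 37.8%. The library titled Day 12- 12 has the longest list and had a site at 5 of 10 receptor genes against 78.9% of all genes, and at 3 of 10 in the equal-length list against 31.0%. Those 5 were Pirb, Sirpa, Siglece, Clec12a and Clec10a, and the median number of sites per gene was 0.5 against 3 over all genes. Clec5a, Clec4e and Clec4n had a day 12 site and none in any of these 3 libraries. Such genes were 3 of 10 here and 2.03% of all genes. Grouping by title matters here, because Day 12- 4 is labelled as 12 days of Dox. Clec4d had a day 12 site and, among these 3 libraries, a site in Day 12- 4 only, so under the treatment labels it would join the 3 genes. The count rests on sites of low rank and on the window: it was 0 in the equal-length lists and with a score of at least 20, and 1 with a 20 kb window or the gene body alone. These alternatives were chosen after seeing the data. The share of all genes, 2.03%, belongs to the main setting and was not computed for them.

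**Figure D2:**
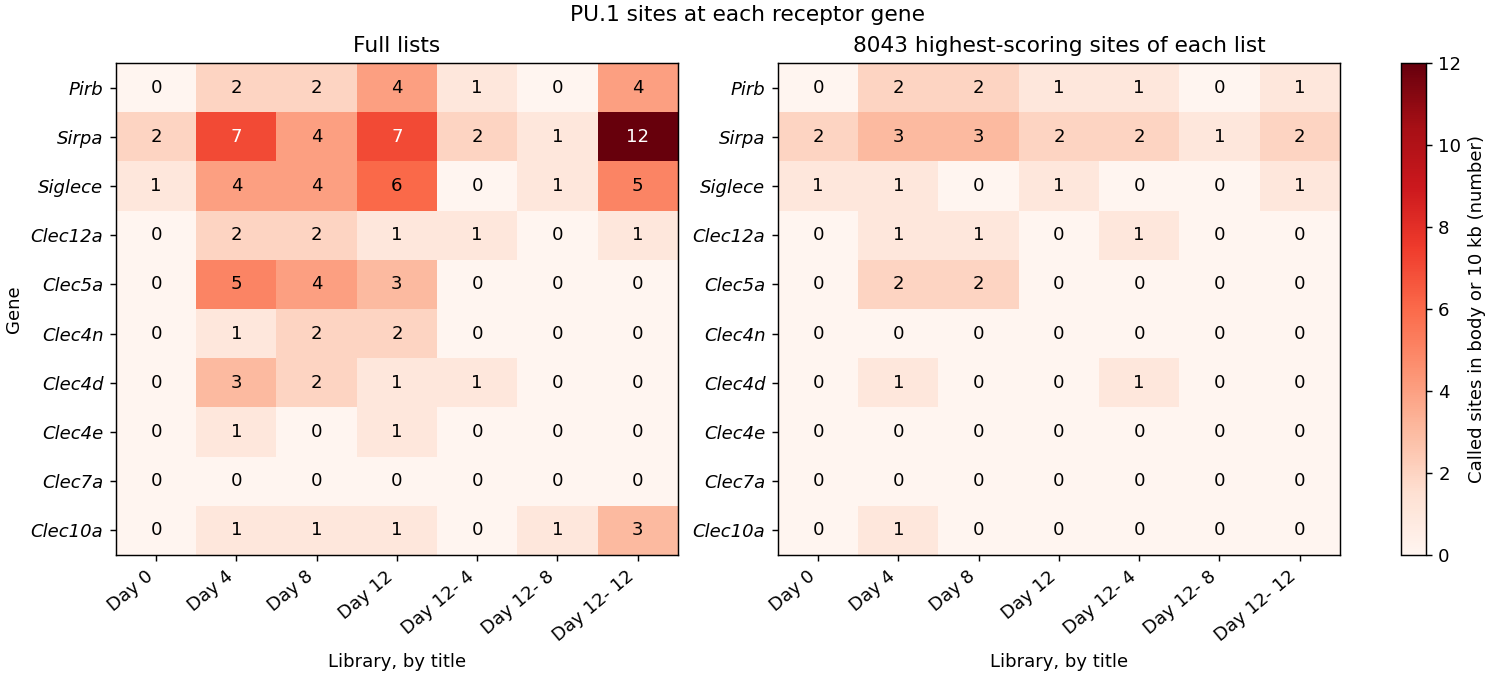
Number of called PU.1 sites (digits and colour) in the body or within 10 kb of each receptor gene (rows) in each library by title (columns), for full lists and for the 8043 highest-scoring sites of each list. Sirpa holds the most sites, up to 12 in the library titled Day 12- 12, the row of Clec7a is 0 throughout, and Clec5a, Clec4n and Clec4e are 0 in all 3 libraries titled knockdown.

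Joined within 100 bp across the 7 lists, the summits around the 10 genes made 55 sites. Of these, 33 (60.0%) were called in 1 library, against 73.0% of all joined sites of the genome, and 14 (25.5%) in the library titled Day 12- 12 alone, against 41.6%. No site was called in all 7 libraries, and 2, both inside Sirpa, were called in 6. Days 4, 8 and 12 shared 15 sites, of which 13 were not called at day 0. For these counts of shared sites no share over all joined sites of the genome was computed. They therefore describe the 10 genes only. Of the 26 sites called at day 4, 16 (61.5%) were also called at day 12, against 37.0% of all day 4 sites of the genome. Of the 26 called at day 12, 24 (92.3%) were not called at day 0, against 96.3% of all day 12 sites. Of the 26 day 12 sites, 15 (57.7%) were called in none of the 3 libraries titled knockdown, against 48.0% of all day 12 sites. A further 17 sites were called there and not at day 12, among them the 14 of Day 12- 12 alone. The share over all sites was not computed for these 17.

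Pirb (chromosome 7, 3712505 to 3720382) encodes paired immunoglobulin-like receptor B, an inhibitory receptor for MHC class I. Its most recurrent site lay 67 bp outside the upper coordinate of the gene (summits 3720449 to 3720463), next to the gene start in the sequence printed above. It was called in 5 libraries, all but day 0 and Day 12- 8. Its scores were 231, 178 and 198 at days 4, 8 and 12, met or passed by 2.08, 2.73 and 3.89% of those lists. In the library titled Day 12- 4 it scored 12.4, a value reached by 39.2% of that list, and in Day 12- 12 it scored 66.0, reached by 1.38%. As a share of the list, the site thus stood in the upper 4% of 4 lists and lower in the much shorter list of Day 12- 4. It was in the equal-length list of each of the 5 libraries that called it.

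The highest Pirb score came from another site, 5279 bp outside the lower coordinate (3707197 to 3707226), which scored 272, 206 and 46.6 at days 4, 8 and 12. It lay closer to Rps9, a ribosomal protein gene, than to Pirb and had no call in untreated cells or the 3 libraries titled knockdown. It was within the equal-length lists of days 4 and 8 and not in that of day 12. A further 3 sites around Pirb, called at day 12, in Day 12- 12 or in both, were also nearest to Rps9. The site at 3703940 lay 14 bp outside Rps9, and the others lay inside it.

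Sirpa (chromosome 2, 129591042 to 129632228) encodes the inhibitory receptor SIRP-alpha, whose ligand CD47 restrains phagocytosis. It held the most sites of the 10 genes in 5 of the 7 libraries and shared the highest count at day 8 and in Day 12- 8. Its full-list counts were 2, 7, 4 and 7 at days 0, 4, 8 and 12 and 2, 1 and 12 in the knockdown titles in the order above. Sirpa is also the longest of the 10 genes, at 41187 bp.

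The Sirpa site 1344 bp outside its upper coordinate (129633572 to 129633593) scored 288, 241 and 320.2 at days 4, 8 and 12. Its scores under the titles Day 12- 4 and Day 12- 12 were 20.03 and 101. It was not called at day 0 or in Day 12- 8. It stood in the equal-length list of each of the 5 libraries that called it. In the library titled Day 12- 12 its score was met or passed by 0.81% of the list.

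Both sites shared by 6 libraries lay inside Sirpa and had a day 0 call. The site 5064 bp from the lower coordinate (129596106 to 129596146) scored 6.37, 361, 72.6 and 73.6 at days 0, 4, 8 and 12. Day 12- 4 and Day 12- 12 gave it 23.5 and 57.7, and it was not called in Day 12- 8. At day 4 only 0.644% of the list scored as high, and at day 12 10.1% did.

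The neighbouring site at 1859 bp (129592901 to 129593030) had the other order within the lists. Days 0, 4, 8 and 12 gave it 10.8, 10.9, 31.4 and 149, values reached by 41.8, 53.3, 26.7 and 5.39% of those lists. Its scores were 13.3 and 14.7 under the titles Day 12- 8 and Day 12- 12, and it was the single Sirpa site of Day 12- 8. Among the equal-length lists it was kept at day 0, day 12 and in Day 12- 8. Within the day 4 list this site scored below its neighbour, and within the day 12 list above it. Another recurrent site, 4716 bp outside the lower coordinate (129586250 to 129586326), scored 173, 156 and 46.6 at days 4, 8 and 12 and 8.04 in Day 12- 12.

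Siglece (chromosome 7, 43648882 to 43672044) encodes Siglec-E, an inhibitory receptor for sialic acids. Of its 12 sites none was called in more than 4 libraries. The site called in 4 lay 6033 bp outside the lower coordinate (43642786 to 43642849), inside the neighbouring gene Ceacam18, and scored 121, 33.3 and 54.5 at days 4, 8 and 12 and 6.87 in Day 12- 12. The site at the printed Siglece window, whose start is the internal one (43660191 to 43660204), scored 6.52, 11.9 and 16.3 at days 4, 8 and 12, values reached by 78.0, 58.2 and 28.8% of the lists. No library titled knockdown called it. Nor did any of them call the site 5830 bp inside the lower coordinate (43654712 to 43654751), which scored 56.2, 17.7 and 10.6 at days 4, 8 and 12. A site 118 bp inside the upper coordinate (43671865 to 43671926), outside the printed window, scored 115 at day 12 and 20.6 in Day 12- 12. A separate site 322 bp outside the upper coordinate, inside the neighbouring gene Ctu1, scored 48.4 at day 4 and 8.00 at day 8. The day 0 site of Siglece scored 9.90 and lay 3459 bp outside the gene, also inside Ctu1. The library titled Day 12- 4 had no Siglece site.

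Clec12a (chromosome 6, 129349783 to 129365303) encodes the inhibitory C-type lectin MICL, also known as CLL-1. Of its 7 calls, 5 came from 1 site 65 bp outside the lower coordinate (129349698 to 129349718). This site scored 354, 106 and 44.1 at days 4, 8 and 12, 31.4 in Day 12- 4 and 14.4 in Day 12- 12. Day 0 and Day 12- 8 had no call there. The score was met or passed by 0.711% of the day 4 list, 6.86% of the day 8 list and 14.6% of the day 12 list. The share was 15.4% in the list titled Day 12- 4 and 9.14% in Day 12- 12, and the site was in the equal-length lists of days 4 and 8 and of Day 12- 4. The other Clec12a site, 9938 bp beyond the upper coordinate and nearest to Clec12b, scored 22.5 at day 4 and 8.78 at day 8.

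**Figure D3:**
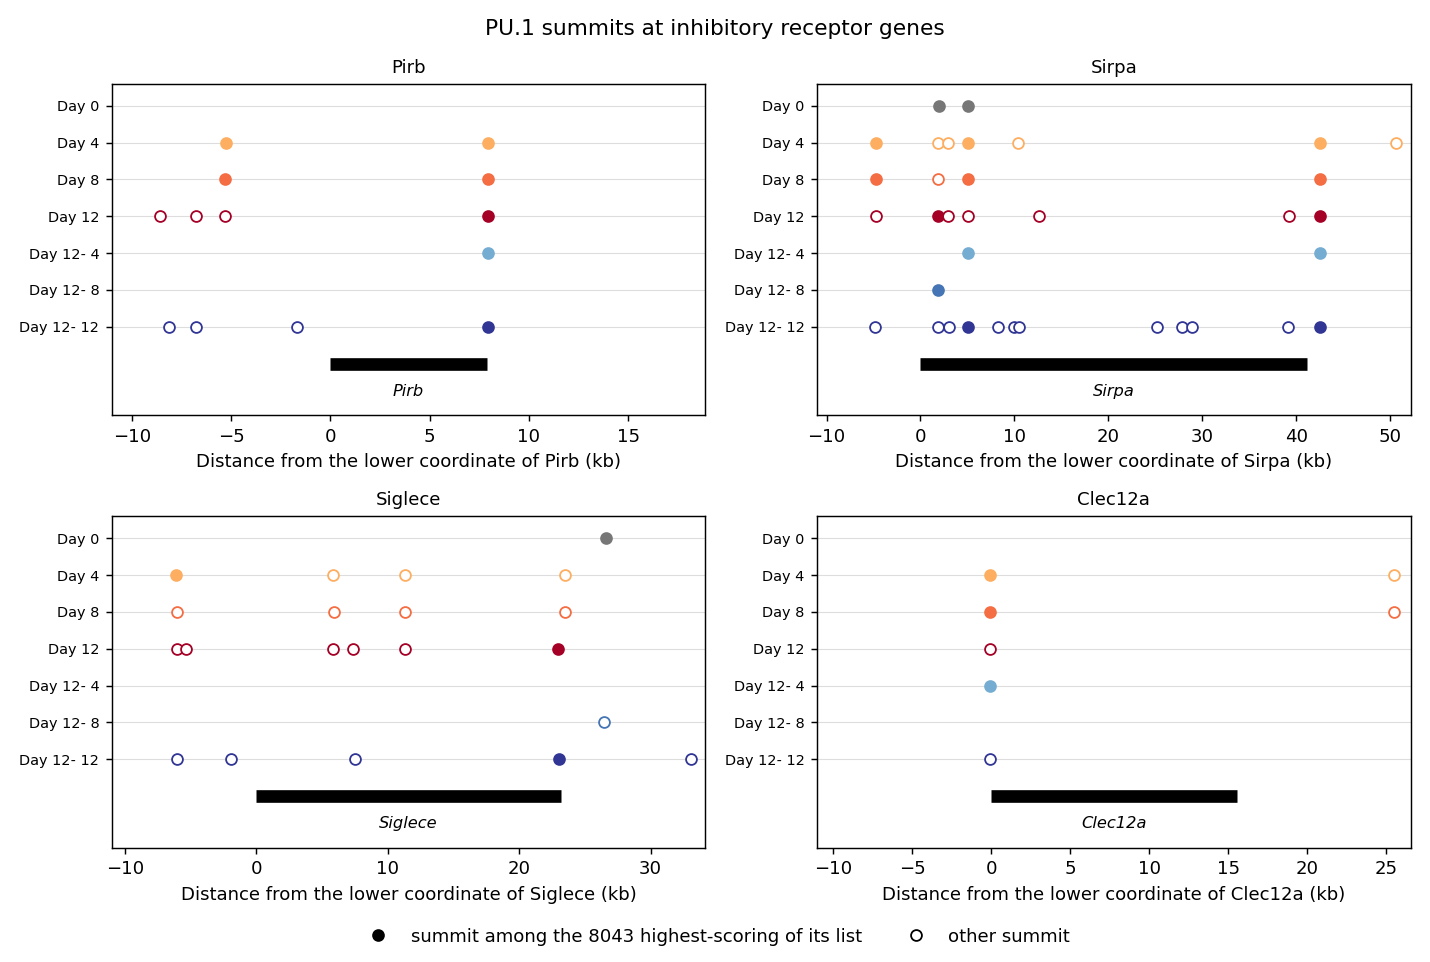
Called PU.1 summits (circles) around Pirb, Sirpa, Siglece and Clec12a, 1 row per library by title, placed by distance in kb from the lower coordinate of the gene (black bar). Filled circles are summits among the 8043 highest-scoring of their list; the sites 67 bp outside Pirb, 1344 bp outside Sirpa and 65 bp outside Clec12a recur in 5 libraries each.

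Clec5a (chromosome 6, 40574898 to 40585805) encodes MDL-1, an activating lectin that signals through DAP12. It had 5, 4 and 3 sites at days 4, 8 and 12 and none in the other 4 libraries. The highest scores came from a site 1116 bp outside the lower coordinate (40573769 to 40573782), with 117, 77.9 and 6.22 at days 4, 8 and 12. The site at the gene start (40585828 to 40585887), in the sequence printed above, scored 103, 42.1 and 16.3. Both were in the equal-length lists of days 4 and 8 and not in that of day 12. The start site stood at 7.30, 20.8 and 28.8% of the lists and the lower site at 6.21, 10.5 and 66.0%.

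Clec4n, Clec4d and Clec4e lie side by side on chromosome 6 and encode the FcR-gamma-coupled lectins Dectin-2, MCL and Mincle, which bind fungal or mycobacterial glycans and glycolipids. Their 10 kb windows overlap, and the day 8 summit at 123253044, with a score of 13.9, counted for both Clec4n and Clec4d. The site that recurred most in this cluster lay 4965 bp inside Clec4d (gene 123262107 to 123275268, summits 123267072 to 123267131). Days 4, 8 and 12 gave it 60.6, 24.7 and 2.95, values reached by 13.1, 33.2 and 97.2% of those lists. In the library titled Day 12- 4 it scored 6.72, reached by 66.5% of the list. It was in the equal-length lists of day 4 and of Day 12- 4.

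Clec4n (123229843 to 123247024) had a weak site 2080 bp outside its lower coordinate at days 4, 8 and 12, with scores of 8.36, 6.86 and 8.43. Clec4e (123281789 to 123289871) had 1 summit at day 4, inside the gene with a score of 23.9, and 1 at day 12, at its start with a score of 8.67. No site of Clec4n or Clec4e was in any equal-length list. The libraries titled Day 12- 8 and Day 12- 12 had no summit around any of the 3 genes.

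Clec10a (chromosome 11, 70166623 to 70170836) encodes MGL1, a lectin for galactose and N-acetylgalactosamine that takes up glycoproteins. Its site 102 bp outside the lower coordinate (70166509 to 70166521) scored 66.2, 14.2 and 18.2 at days 4, 8 and 12 and was called in no other library. The library titled Day 12- 12 had 3 other Clec10a sites, with scores from 4.88 to 9.77, and Day 12- 8 had 1, with a score of 4.91. None of these 4 coincided with the restoration site.

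Clec7a (chromosome 6, 129461591 to 129472785) encodes Dectin-1, the receptor for fungal beta-glucans. It had no summit within 10 kb in any library. The nearest summits lay 27.2, 27.0, 22.3 and 24.7 kb away at days 0, 4, 8 and 12, nearest to the neighbouring lectin genes Clec1a or Olr1. Under the knockdown titles, in order, they lay 27.2, 60.6 and 43.9 kb away. Clec12a, on the same chromosome at a lower coordinate, had a site in 5 libraries.

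**Figure D4:**
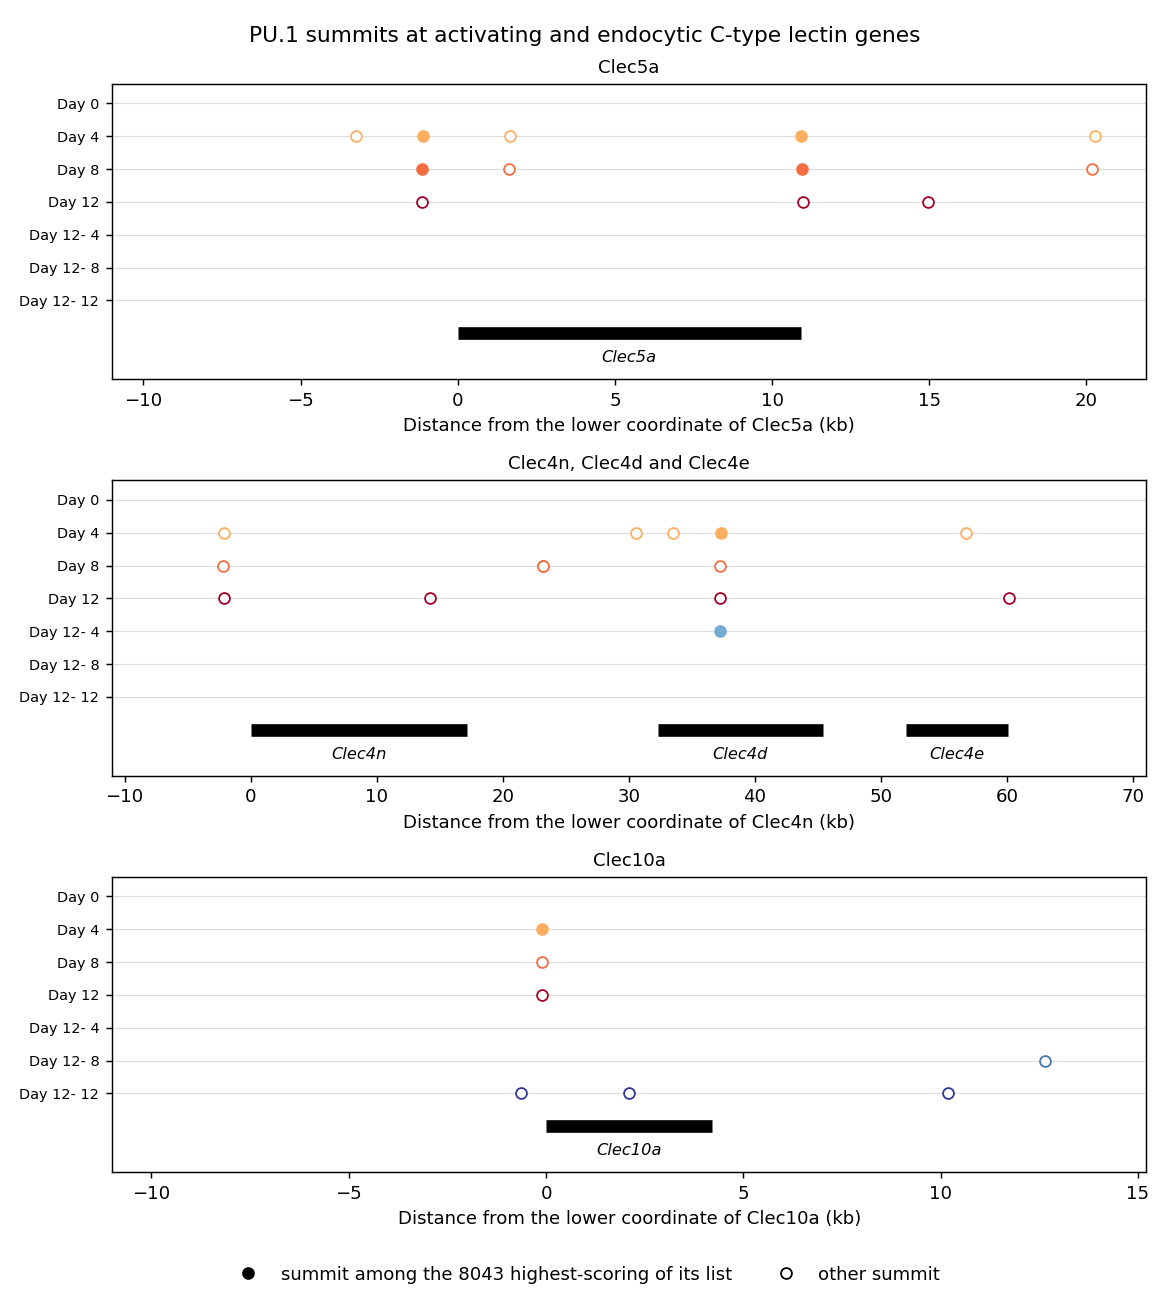
Called PU.1 summits (circles) around Clec5a, the neighbours Clec4n, Clec4d and Clec4e, and Clec10a, 1 row per library by title, placed by distance in kb from the lower coordinate of the leftmost gene of each panel (black bars are genes). Filled circles are summits among the 8043 highest-scoring of their list; Clec5a has 2 filled sites at days 4 and 8 and none at day 12, and the libraries titled Day 12- 8 and Day 12- 12 are empty in the upper and middle panels.

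Just inside the 10 kb limit, 7 summits lay between 9 and 10 kb of a receptor gene, with scores from 3.98 to 22.5. Just outside it, the nearest was a summit 10590 bp from Clec10a in the library titled Day 12- 12, with a score of 9.77.

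Genes of the same signalling pathways and families gave a frame for these counts, each read against the shares of all genes above. In full lists those shares were 36.8, 69.8, 61.7 and 77.1% at days 0, 4, 8 and 12. They were 34.8, 61.8 and 78.9% in the knockdown titles in the order above. The 15 genes for signalling partners of these receptors encode adaptors, kinases, phosphatases and others, among them the protease Malt1 and the ligand CD47. Of these, 11 had a site at day 0 and 15 at each of days 4, 8 and 12. In the knockdown titles, in the order above, 12, 12 and 15 had a site. Beside these 11 of 15 signalling genes, 2 of the 10 receptor genes had a day 0 site, as did 36.8% of all genes. The highest day 12 scores in that group were 645 at Ptpn6, which encodes SHP-1, 449 at Lyn, a Src-family kinase that phosphorylates ITIMs, 447 at Malt1, a signalling protease downstream of Card9, and 443 at Inpp5d, the lipid phosphatase SHIP-1. Their day 0 scores were 10.8, 5.23 and 56.1 for Ptpn6, Lyn and Malt1, and Inpp5d had no day 0 site.

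Of 16 other inhibitory receptor genes, 4, 15, 13 and 15 had a site at days 0, 4, 8 and 12, and 6, 5 and 13 in the knockdown titles. Cd300a and Cd300lf, inhibitory receptors of the CD300 cluster, scored 778 and 414 at day 12, followed by Pecam1, an adhesion receptor with ITIMs, at 154 and Milr1 (allergin-1) at 113. Pirb and Sirpa, with day 12 highs of 198 and 320.2, lie between Pecam1 and Cd300lf in that order. Of 19 other C-type lectin genes, 3, 15, 9 and 14 had a site at days 0, 4, 8 and 12, and 4, 1 and 12 in the knockdown titles. Clec4g, Cd302, Olr1 and Clec1a scored 129, 60.3, 58.9 and 52.1 at day 12. The Clec1a value came from a site that Clec9a and Clec12b share, and Clec12b also shares a site with Clec12a.

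In the family of activating partner receptors 11 of 12 genes were in the gene table, and 0, 10, 7 and 9 of them had a site at days 0, 4, 8 and 12. The knockdown titles gave 1, 0 and 7. Cd300lb, Trem1, Trem3 and Trem2 scored 76.5, 48.1, 46.6 and 18.7 at day 12 and 274, 93.5, 62.8 and 105 at day 4. In equal-length lists 5, 4 and 0 of the 11 had a site at days 4, 8 and 12, while the other C-type lectins had 8, 1 and 1 of 19. The other inhibitory receptors had 8, 8 and 6 of 16, and the signalling genes 11, 13 and 13 of 15. Of all genes, 25.5, 29.2 and 35.2% had a site in these equal-length lists. The members of these lists also share loci, so their genes are not independent of each other.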

How the data were processed

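PU.1 ChIP-seq summits of 7 of 8 labelled samples were analysed, 1 library per title. Each deposited file is a list of peak summits with a score per peak. MACS2 and mm10 are the tool and build, per the submitters' processing notes. The deposited scores were read as −log10 q-values, since no score lies below 1.30, the −log10 of 0.05. Aligner, tool version, control, pooling and depth are not given in the sources used here.

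Computations used Python 3.11.15 with numpy 2.4.6 and pandas 2.3.3, and figures matplotlib 3.10.9. Summits were assigned to protein-coding genes of a RefSeq table (GRCm38.p6, chromosomes 1 to 19, X and Y) when they lay in the body or within 10 kb. Sites of different lists were joined by single linkage at 100 bp. Window counting and linkage were tested on planted positions. All samples were grouped by title. With 1 library per title there is no replicate error, so no test was run and no p-values are given. The 10 genes and the 4 related lists (62 genes, 61 in the table) were chosen with earlier results of these data known. Text names all 10 genes, their highest-scoring site and each site called in 4 or more libraries, and the 4 genes of each related list with the highest day 12 score. Alternatives were other windows (0, 5 and 20 kb), score minimums of 10 and 20, equal-length lists, nearest-gene assignment, linkage at 50 and 200 bp, and the treatment labels in place of titles.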

Additional observations from a re-analysis of the deposited data

How the results depend on the processing

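Values below run over days 0, 4, 8 and 12 and then the libraries titled Day 12- 4, Day 12- 8 and Day 12- 12. The main counts of receptor genes with a site were 2, 9, 8, 9, 4, 3 and 5, and of sites 3, 26, 20, 26, 5, 3 and 25. With gene bodies only, genes numbered 1, 5, 4, 4, 2, 1 and 3 and sites 10, 6, 11, 2, 1 and 13 from day 4 on. With a score of at least 10, genes numbered 1 at day 0 and 1 in Day 12- 8, and sites 1, 17 and 15 at days 0, 4 and 12, with 1 and 7 in the last 2 libraries. With a score of at least 20, genes numbered 0 at day 0, 4 at day 12, and 2, 0 and 3 in the knockdown titles, and sites 0, 15, 11, 10, 3, 0 and 4. Equal-length lists gave 4 and 3 genes at days 8 and 12 and 1 and 3 in Day 12- 8 and Day 12- 12, and 11, 8 and 4 sites at days 4, 8 and 12 and 1 and 4 in those 2 libraries. Nearest-gene assignment left 1 gene at day 0, and a 20 kb window gave 5 sites in Day 12- 8. A 5 kb window kept each of these totals within 1.5 times of its main value. The counts per gene and library were less stable. Those that changed by more than 1.5 times, or to or from 0, ranged from 10 with the 5 kb window to 31 with gene bodies only. The 55 joined sites became 59 at 50 bp and 51 at 200 bp, the 24 called at day 12 and not day 0 became 25 and 24, and the 15 called at day 12 and in no library titled knockdown became 17 and 13. The 3 genes with a day 12 site and none in a library titled knockdown became 1 with gene bodies only or a 20 kb window, 0 with a score of at least 20 or equal-length lists, 2 with a score of at least 10, and stayed 3 with a 5 kb window or nearest-gene assignment; these alternatives were chosen after seeing the data. Under the treatment labels, which place the Cd11b-high library on Dox, the count of joined day 12 sites in no knockdown library was 16. Unknown depth limits all counts, and fewer summits or shorter windows lower them by construction. Among the alternatives, shares over all genes were computed only for genes with a site in the equal-length lists. No paired analysis was possible because each title had 1 library and no result came from a test.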
